A study of Mus musculus with 8 samples.

Results

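The 8 CXC chemokine genes Cxcl1, Cxcl2, Cxcl3, Cxcl9, Cxcl10, Cxcl14, Cxcl16 and Pf4 were followed by name, among 25124 genes measured by RNA-seq, in mouse osteoclast precursor (OCP) cells. The data asked how extracellular peroxiredoxin 1 (PRDX1) and RANKL, the cytokine that turns macrophages into bone-resorbing osteoclasts, act alone and together. OCP cells were macrophages grown with M-CSF from femur and tibia marrow of C57BL/6 mice aged 6 to 8 weeks, as labelled. The 4 groups of 2 libraries were no PRDX1 + no RANKL, PRDX1 + no RANKL, no PRDX1 + RANKL and PRDX1 + RANKL, and cells of every group had been raised with M-CSF. PRDX1 was given at 200 nM and RANKL at 100 ng/mL, and the culture lasted 48 h. PRDX1 was a tagged recombinant protein made in E. coli and passed over an endotoxin-removal resin, and none of the 4 groups received an inactive protein in its place. The labels do not say whether the 2 libraries of a group came from separate animals, so that p-values measure only the spread between these libraries, which may be technical.

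CXC chemokines are small secreted proteins with a pair of cysteines held apart by 1 residue, and they draw leukocytes along gradients through G protein-coupled receptors. Cxcl1, Cxcl2 and Cxcl3 bind Cxcr2 and recruit neutrophils, and macrophages make them when NF-κB is active. Cxcl9 and Cxcl10 bind Cxcr3 on T cells and natural killer cells and are classical interferon targets. Pf4 (platelet factor 4) is stored in platelet granules and is also made by macrophages. Cxcl14 attracts monocytes and dendritic cells, and Cxcl16 is a membrane-bound chemokine that doubles as a scavenger receptor until a protease sheds it.

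Of the members, 6 lie on chromosome 5 (mm10). Pf4 (NM_019932, chr5:90772435-90773383), Cxcl3 (NM_203320, chr5:90786101-90788093), Cxcl1 (NM_008176, chr5:90891245-90893115) and Cxcl2 (NM_009140, chr5:90903899-90905938) are on the plus strand. Cxcl9 (NM_008599, chr5:92321331-92328079) and Cxcl10 (NM_021274, chr5:92346639-92348889) are on the minus strand, 18.6 kb apart, and 1415 kb separate them from Cxcl2. Cxcl14 (NM_019568) is at chr13:56288643-56296551 and Cxcl16 (NM_023158) at chr11:70455189-70459984, both on the minus strand.

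The promoters of the 3 neutrophil attractants are shown because PRDX1 raised all of them and they carry one and the same 11-base stretch, and those of the neighbours Cxcl10 and Cxcl9 because their levels differed in opposite directions when PRDX1 was added to RANKL. The sequences are RefSeq's for GRCm38.p6, which has the coordinates of mm10, and a window was found for 7 of the 8 members (Cxcl16 is named only). Windows of 250 bases before to 50 bases after each gene's start were searched on both strands for the NF-κB consensus and for the core of the interferon-stimulated response element (ISRE, TTCNNTTTC). They were also searched for GAS (TTCNNNGAA), AP-1 (TGANTCA) and the TATA box (TATAAA). The first 3 lines give the 120 bases before the start of Cxcl1 (chr5:90891125-90891244), Cxcl2 (chr5:90903779-90903898) and Cxcl3 (chr5:90785981-90786100), all on the plus strand, with the NF-κB match and any TATA box in capitals. The Cxcl10 line (chr5:92348950-92349119, minus strand) has, in capitals and in order, the ISRE core, both NF-κB matches and an AP-1 match. The Cxcl9 line (chr5:92328220-92328279, minus strand) has a TATA box and the ISRE core in capitals.
Cxcl1: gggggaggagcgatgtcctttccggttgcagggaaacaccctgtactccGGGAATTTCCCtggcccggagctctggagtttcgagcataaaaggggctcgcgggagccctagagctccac
Cxcl2: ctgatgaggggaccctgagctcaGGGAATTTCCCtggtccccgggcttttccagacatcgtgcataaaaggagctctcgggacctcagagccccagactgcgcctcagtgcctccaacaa
Cxcl3: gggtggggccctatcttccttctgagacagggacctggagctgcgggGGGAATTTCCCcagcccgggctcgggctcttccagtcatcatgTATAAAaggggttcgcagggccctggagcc
Cxcl10: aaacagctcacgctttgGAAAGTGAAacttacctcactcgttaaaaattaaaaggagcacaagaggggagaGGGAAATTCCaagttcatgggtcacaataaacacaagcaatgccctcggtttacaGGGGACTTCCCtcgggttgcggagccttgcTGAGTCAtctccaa
Cxcl9: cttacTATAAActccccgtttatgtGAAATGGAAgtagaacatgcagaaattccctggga

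The NF-κB match GGGAATTTCCC began 71 bases before the start of Cxcl1, 97 before Cxcl2 and 73 before Cxcl3. Cxcl10 had NF-κB matches 159 and 104 bases before its start and an ISRE core 213 bases before it. Cxcl9 had an ISRE core 175 bases before its start and an AP-1 match after it (not shown), and Cxcl14 an ISRE core and a GAS match at 172 and 191 bases (not shown). None of these motifs was found in the Pf4 window. Of 32851 promoter windows of the same length, 8.46% held the NF-κB consensus, 8.56% the ISRE core, 8.3% GAS, 7.81% AP-1 and 13.6% the TATA box. No match overlapped one of another motif. These matches are descriptions of the letters and not evidence of binding.

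The libraries held 27284666 to 46171820 reads in total, as recovered from the deposited values. RANKL libraries carried the osteoclast markers their label calls for: the summed level of 7 osteoclast markers was 1520 to 1563 FPKM with RANKL, 206 to 211.5 with PRDX1 + RANKL, 31.9 to 33.15 with neither and 78.61 to 83.13 with PRDX1. The 6 macrophage markers were detected in every group, with sums of 9755 to 16920 FPKM. Markers of other cells that marrow can hold also moved. The 8 neutrophil markers summed to 7.79 to 12.19 FPKM with neither, 38.84 to 42.49 with PRDX1, 15.96 to 17.5 with RANKL and 34.09 to 37.08 with both, and none of them was at 0 in every library. The 8 stromal markers gave 7.928 to 10.9, 17.26 to 17.3, 7.799 to 9.795 and 16 to 19.54 FPKM in the same order. The 4 B cell markers also had higher sums with PRDX1, at low levels: 0.577 to 0.96 FPKM with neither, 1.574 to 2.077 with PRDX1, 0.617 to 0.913 with RANKL and 1.356 to 1.582 with both. The 4 T cell markers gave 0.417 to 0.741, 0.902 to 1.007, 0.752 to 0.942 and 1.275 to 1.393 FPKM in the same order. Most of this T cell sum was Cd4, with means of 0.519, 0.872, 0.8165 and 1.245 FPKM, and Cd3e was at 0 in every library. In bulk RNA, fewer cells of a type and less RNA per cell cannot be told apart.

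A gene was called higher or lower when limma's test on log2(FPKM + 1) gave a Benjamini-Hochberg adjusted p under 0.05 over 11700 genes and the fold was at least 1.5. FPKM is reads scaled to transcript length and to the library's total. Of the members, 7 entered the test. Cxcl9 averaged under the minimum of 0.5 FPKM and is described by its reads. Cxcl3 was below 0.5 FPKM with neither stimulus and passed the minimum through the other groups.

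PRDX1 alone raised 4 of the 7 tested members and lowered 0 of them, where 3.8% of all genes were called higher and 1.99% lower. The median of the 7 log2 fold changes was 1.16, beside −0.04 over all genes. The 4 were Cxcl1, Cxcl2, Cxcl3 and Cxcl16. In the presence of RANKL, PRDX1 raised 6 of the 7 (all but Cxcl14) and lowered 0, with a background of 6.03% higher and 4.17% lower. The median was 1.19, beside −0.06 over all genes.

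RANKL alone raised Cxcl10 and Cxcl16 and lowered Cxcl2, Cxcl14 and Pf4, with a background of 11.8% of genes higher and 9.96% lower. In the presence of PRDX1, RANKL raised Cxcl10 and lowered Cxcl14 and Pf4, with a background of 4.52% and 3.98%. The interaction term, the PRDX1 log2 fold change with RANKL minus that without, was called positive for 4 members, Cxcl2, Cxcl10, Cxcl14 and Pf4, and negative for 0, with a background of 4.5% and 4.35%. For Cxcl2 the PRDX1 rise was larger with RANKL, and for Cxcl10 and Pf4 a PRDX1 rise was called only with RANKL. The Cxcl14 value went from −0.43 without RANKL to 0.17 with it. The PRDX1 and RANKL comparisons share libraries, so their counts are not independent of each other.

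**Figure D1:**
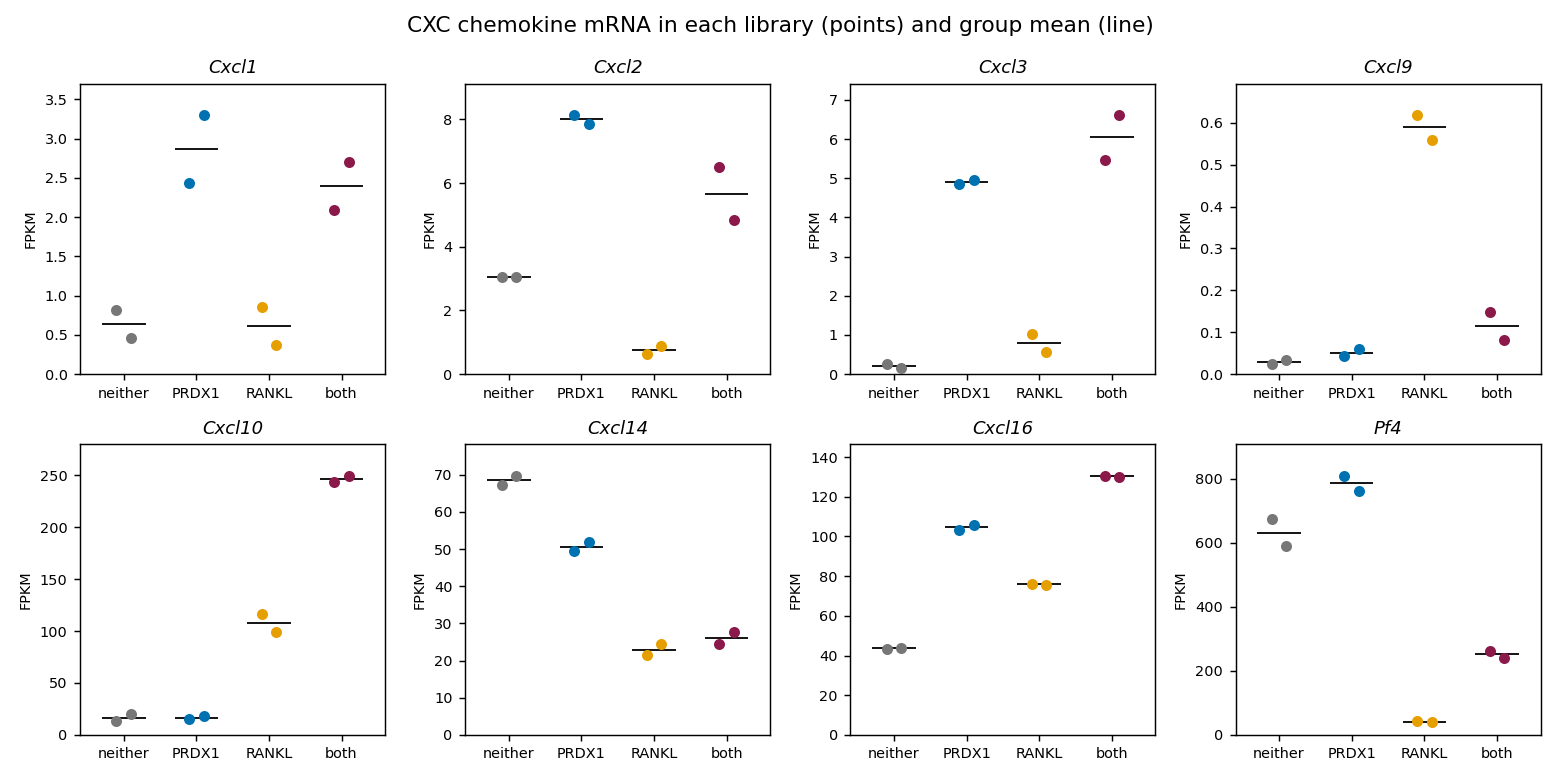
Levels of the 8 CXC chemokine mRNAs in each library (points, FPKM, linear axis from 0, scaled for each gene) and the mean of each group (line). The groups from left to right are no PRDX1 + no RANKL, PRDX1 + no RANKL, no PRDX1 + RANKL and PRDX1 + RANKL. For Cxcl1, Cxcl2 and Cxcl3 all 4 PRDX1 libraries sit above all 4 others, whereas Cxcl9 is highest in the 2 libraries with RANKL alone.

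Of the neutrophil attractants, Cxcl1 and Cxcl3 were scarce without PRDX1, while Cxcl2 averaged 3.04 FPKM with neither stimulus. Cxcl1 stood at 0.823 and 0.457 FPKM with neither stimulus, 2.44 and 3.30 with PRDX1, 0.855 and 0.368 with RANKL, and 2.09 and 2.71 with both. The lowest PRDX1 library thus lay above the highest library without it. Cxcl1 rose 4.48-fold in mean FPKM with PRDX1 alone (log2 fold change 1.24 ± 0.18 SE, adjusted p = 0.0006784) and 3.92-fold with PRDX1 under RANKL (1.09 ± 0.18, adjusted p = 0.0008493). No change with RANKL was detected, with −0.03 (95% interval −0.43 to 0.37) without PRDX1. The sign of that value and of the interaction (−0.15, interval −0.72 to 0.42) turned when single libraries were left out. With PRDX1 present the RANKL value was −0.18 (adjusted p = 0.4475). The counts behind Cxcl1 were 12 to 23 reads per library without PRDX1 and 72 to 110 with it.

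Cxcl3, the member closest in pattern to Cxcl1, had the largest fold with PRDX1 alone of the tested members. It was at 0.267 and 0.166 FPKM with neither, 4.85 and 4.95 with PRDX1, 1.01 and 0.572 with RANKL, and 5.48 and 6.62 with both. From 7 and 8 reads per library it reached 154 and 177 with PRDX1 alone. The rise was 22.6-fold in mean FPKM (log2 fold change 2.28 ± 0.13 SE, adjusted p = 1.5e-06), and the ratio of summed reads per library total was 23.6 with a 95% counting interval of 14.1 to 42.7. Under RANKL the PRDX1 rise was 7.63-fold (1.98 ± 0.13, adjusted p = 1.824e-06).

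The RANKL effect on Cxcl3 depended on how low values were treated. Both RANKL libraries without PRDX1 lay above both with neither stimulus, and the log2 fold change of 0.55 ± 0.13 (adjusted p = 0.004669) was under the fold of 1.5 on the log2(FPKM + 1) scale, although the mean FPKM differed 3.66-fold. With a pseudocount of 0.1 it was 1.47 (adjusted p = 0.0006578), and in limma-voom on the recovered reads it was 1.79 (adjusted p = 0.003686), both past the thresholds, and over all 16 alternatives the adjusted p ran from 0.0006578 to 0.03672. It also passed at 0.61 when no PRDX1 + no RANKL replicate 1 was left out, and at 0.73 when replicate 2 of no PRDX1 + RANKL was. The smaller PRDX1 effect under RANKL (interaction −0.30, adjusted p = 0.2938) also depended on this treatment. It became −1.18 with a pseudocount of 0.1 (adjusted p = 0.04002) and −1.51 in limma-voom (adjusted p = 0.03975). With single libraries left out it ran from −0.477 to −0.12, under the fold threshold.

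RANKL alone lowered Cxcl2, a call that neither Cxcl1 nor Cxcl3 had. Its levels were 3.04 and 3.04 FPKM with neither, 8.15 and 7.86 with PRDX1, 0.647 and 0.887 with RANKL, and 6.52 and 4.83 with both. The 4 groups did not overlap. PRDX1 raised it 2.63-fold alone (log2 fold change 1.16 ± 0.12 SE, adjusted p = 8.53e-05) and 7.39-fold under RANKL (1.91 ± 0.12, adjusted p = 1.407e-06). RANKL alone lowered it 3.97-fold (−1.20 ± 0.12, adjusted p = 1.459e-05). With PRDX1 present the RANKL difference was −0.44 (adjusted p = 0.01543), under the fold threshold, and −0.63 and past it without PRDX1 + RANKL replicate 1. The interaction of 0.75 ± 0.17 (adjusted p = 0.01089) was not called without that same library (0.57) or with no filter on low values (adjusted p = 0.05441, the highest of 15 alternatives, the lowest being 0.002899).

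Cxcl2 and Cxcl3 are close paralogs. Of the 50-base stretches of their annotated transcripts, 126 were found in both genes, which is 5.84% of those of Cxcl2. The paper's reads were paired and longer than these stretches. How many reads could not be assigned to either gene by sequence was not measured. Cxcl3 had 152 such stretches found in any other gene and Cxcl9 had 14. For Cxcl1, Cxcl10, Cxcl14, Cxcl16 and Pf4 none lay in a transcript of another gene. The neutrophil, stromal, B cell and T cell marker sums given above were higher with PRDX1 as well, both without and with RANKL, the T cell sum mostly through Cd4. Of the 5 neutrophil markers that passed the filter, PRDX1 raised S100a8, S100a9 and Mpo in both settings. Retnlg was called in neither (log2 fold change 0.15 without RANKL and −0.17 with it). S100a8 and S100a9 made up most of the neutrophil sum with PRDX1 alone, at means of 17.2 and 19.5 FPKM. Ly6g, under the filter, had 4, 14, 6 and 5 reads in the order neither, PRDX1, RANKL, both. Elane passed only through the PRDX1 groups and is not counted. Of the 3 stromal markers that passed, PRDX1 raised 2 in each setting, Col1a1 and Col1a2, and 3.8% of all genes were called higher without RANKL and 6.03% with it. Their part in the rise of Cxcl1, Cxcl2, Cxcl3 and Cxcl16 was not tested.

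Cxcl10 had the largest RANKL rise of the 7 tested members. It was at 13.3 and 20.1 FPKM with neither, 14.9 and 17.7 with PRDX1, 117 and 99.0 with RANKL, and 244 and 249.9 with both. The PRDX1 libraries without RANKL lay within the range of the untreated ones, with a log2 fold change of −0.01 (interval −0.35 to 0.34, adjusted p = 0.9786). RANKL raised it 6.48-fold without PRDX1 (2.65 ± 0.15 SE, adjusted p = 2.525e-07) and 15.2-fold with it (3.85 ± 0.15, adjusted p = 8.167e-08). On top of RANKL, PRDX1 raised it 2.29-fold (1.19 ± 0.15, adjusted p = 0.0001762), and the interaction was 1.20 ± 0.22 (adjusted p = 0.003332). A PRDX1 rise of Cxcl10 was thus called with RANKL and not without it, and the difference between the 2 settings passed its own test.

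Cxcl9, the neighbour of Cxcl10, was lower, not higher, where PRDX1 was added to RANKL. It had 2 and 4 reads with neither, 4 and 6 with PRDX1, 49 and 56 with RANKL, and 20 and 10 with both, which is 0.023 and 0.033, 0.044 and 0.059, 0.619 and 0.559, and 0.149 and 0.082 FPKM. The 2 libraries with RANKL alone stood above all others. Reads per library total were 20.2 times those of the untreated libraries (95% counting interval 8.98 to 56.3), and 4.99-fold lower with PRDX1 + RANKL than with RANKL alone (3.30 to 7.75). These intervals cover counting error only. In a fit with no filter on low values, limma gave 0.63 for RANKL without PRDX1 (adjusted p = 4.435e-05) and −0.51 for PRDX1 with RANKL (adjusted p = 0.0002511), the second under the fold threshold.

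Pf4 was the most abundant member without RANKL and had the largest RANKL fall of the 7 tested. Its levels were 673 and 589.7 FPKM with neither, 809.7 and 763 with PRDX1, 42.9 and 38.9 with RANKL, and 263 and 240.4 with both. No group overlapped another. RANKL alone lowered Pf4 15.4-fold (log2 fold change −3.92 ± 0.07 SE, adjusted p = 9.358e-11), and with PRDX1 present it lowered it 3.12-fold (−1.64 ± 0.07, adjusted p = 1.588e-07). PRDX1 raised it 6.16-fold under RANKL (2.59 ± 0.07, adjusted p = 9.038e-09), and the value without RANKL was 0.32 ± 0.07 (adjusted p = 0.009355), under the fold threshold. The interaction of 2.28 ± 0.10 (adjusted p = 6.103e-07) was the largest of the tested members. The 6 macrophage markers summed to 15160 to 16920 FPKM with neither, 15990 to 16450 with PRDX1, 9755 to 10180 with RANKL and 13090 to 13480 with both, most of it from Lyz2 (lysozyme), at a mean of 14120 FPKM with neither. The first 2 of these ranges overlap, and those of Pf4 do not. RANKL alone lowered 3 of these 6 markers and raised 1, where 9.96% of all genes were called lower and 11.8% higher. Pf4 also marks megakaryocytes and platelets, and 8 other markers of those cells summed to 1.645 to 2.047 FPKM with neither, 2.004 to 2.439 with PRDX1, 1.044 to 1.298 with RANKL and 2.234 to 2.436 with both. Of the 8, Ppbp alone passed the filter, and it was called lower with RANKL alone and higher with PRDX1 under RANKL, as Pf4 was. Other markers, all under the filter, did not share this pattern: with RANKL alone the means of Itga2b (0.088 to 0.1795 FPKM) and Gp1ba (0.272 to 0.444 FPKM) were higher than with neither, and that of Gp1bb (0.2545 to 0.095 FPKM) was lower with RANKL but no higher with both (0.085 FPKM). Gp6, a platelet collagen receptor, was at 0 in every library. The part of either cell type in the changes of Pf4 was not tested.

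**Figure D2:**
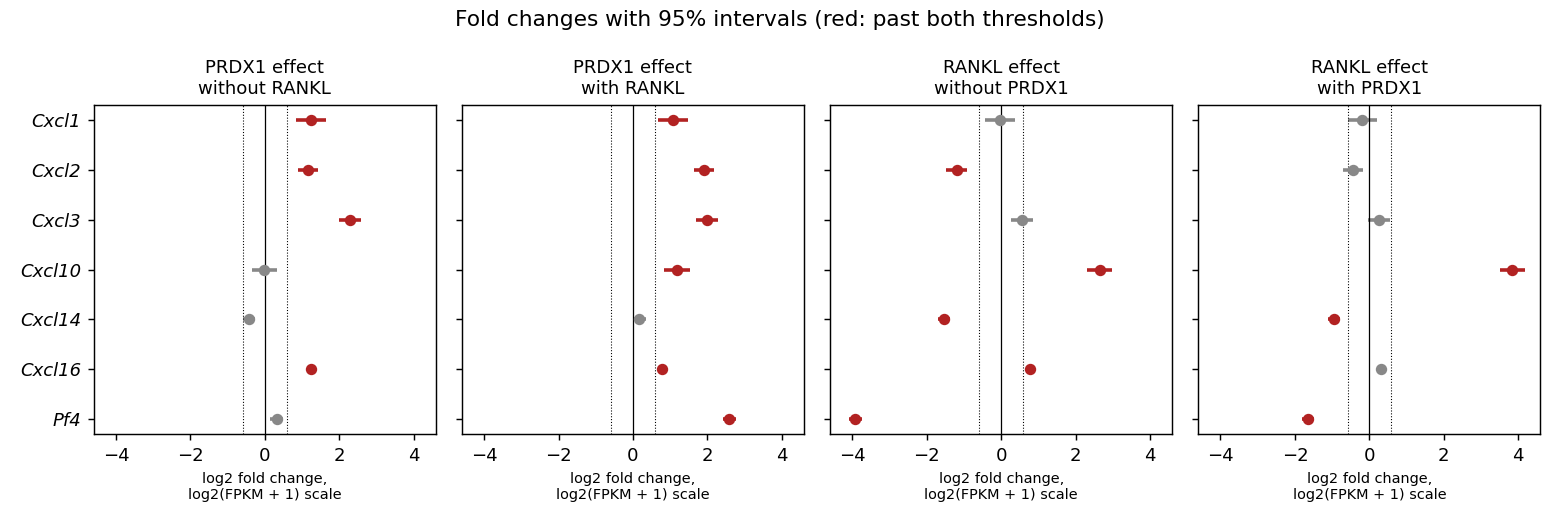
log2 fold changes of the 7 tested CXC chemokines (points) with 95% intervals (bars) in 4 comparisons, on the log2(FPKM + 1) scale. Red marks values past both thresholds, and dotted lines mark a fold of 1.5. Pf4 lies at −3.92 under RANKL alone and at 2.59 for PRDX1 with RANKL, and Cxcl14 is the only member with no red point in either PRDX1 panel.

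Cxcl14 was lowered by RANKL whether or not PRDX1 was present. It was at 67.2 and 69.8 FPKM with neither, 49.6 and 51.8 with PRDX1, 21.5 and 24.4 with RANKL, and 24.3 and 27.6 with both. The RANKL groups lay far below the others and overlapped each other. RANKL lowered it 2.99-fold without PRDX1 (log2 fold change −1.54 ± 0.07 SE, adjusted p = 6.475e-08) and 1.95-fold with it (−0.94 ± 0.07, adjusted p = 8.123e-06). PRDX1 gave −0.43 ± 0.07 (adjusted p = 0.002037) without RANKL and 0.17 ± 0.07 (adjusted p = 0.09149) with it, neither past both thresholds.

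The interaction of Cxcl14, 0.60 ± 0.11 (adjusted p = 0.002771), sat just above the fold threshold of 0.585 on the log2 scale. It fell under it when any of 4 libraries was left out, at 0.571 without no PRDX1 + no RANKL replicate 2, 0.567 without PRDX1 + no RANKL replicate 1, 0.512 without no PRDX1 + RANKL replicate 1 and 0.512 without PRDX1 + RANKL replicate 2. Its adjusted p ran from 8.238e-05 to 0.01913 over 15 alternatives.

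Cxcl16 rose with either stimulus and was highest with both. Its levels were 43.1 and 44.0 FPKM with neither, 103 and 106 with PRDX1, 76.2 and 75.5 with RANKL, and 131 and 130.2 with both. The replicates lay close together, and no group overlapped another. PRDX1 raised it 2.40-fold alone (log2 fold change 1.24 ± 0.04 SE, adjusted p = 5.319e-08) and 1.72-fold under RANKL (0.77 ± 0.04, adjusted p = 5.62e-07). RANKL raised it 1.74-fold alone (0.79 ± 0.04, adjusted p = 1.485e-07), while the value with PRDX1 present, 0.32 ± 0.04 (adjusted p = 0.0002834), was under the fold threshold. Its interaction was −0.47 ± 0.06 (adjusted p = 0.0004034), opposite in sign to the called ones and also under that threshold.

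The gene Zmynd15 (chr11:70459433-70466201, plus strand) overlaps the start of Cxcl16 by 552 bases. Counting did not use the strand, so reads in the overlap could be given to either gene. Zmynd15 was lower than Cxcl16 in each group, with means of 6.64, 17.1, 14.2 and 24.1 FPKM in the order above, and it was also the gene most alike in pattern to Cxcl16.

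As a whole, the summed FPKM of the 8 members was 764 ± 51.9 (SD, n = 2) with neither stimulus, 973.5 ± 27.6 with PRDX1, 250.3 ± 14.5 with RANKL and 669 ± 10.0 with both. Pf4 made up 82.6% of the sum with neither and 80.7% with PRDX1, but 16.3% with RANKL and 37.6% with both. Cxcl10 went from 2.21% and 1.68% to 43.0% and 36.9%. Cxcl16 took 5.72%, 10.7%, 30.3% and 19.5%. Cxcl1, Cxcl2 and Cxcl3 each took at most 0.9999% of the sum in any library, the highest being Cxcl3 with both stimuli.

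**Figure D3:**
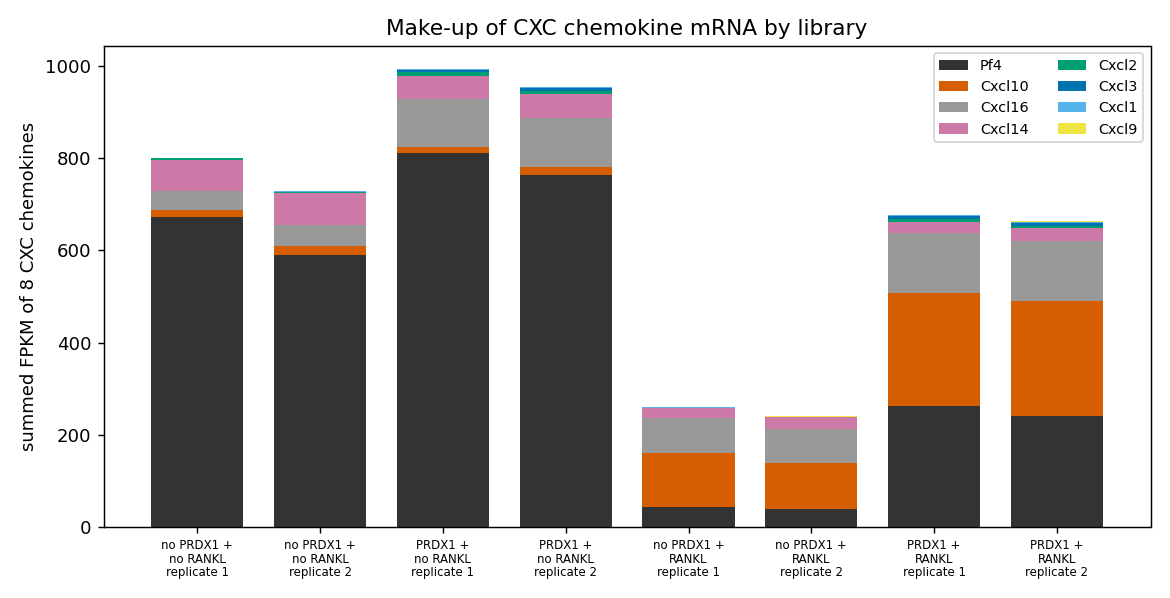
Summed FPKM of the 8 CXC chemokines in each of the 8 libraries, stacked by gene. Pf4 fills most of the bars without RANKL (82.6% of the sum with neither stimulus), whereas with RANKL alone Cxcl10 (43.0%) and Cxcl16 (30.3%) exceed it.

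The order of groups differed from member to member. For Cxcl1 the PRDX1 groups came first and did not differ from each other (adjusted p = 0.4475), nor did the groups without PRDX1 (adjusted p = 0.8854). For Cxcl3 the leading groups, PRDX1 + RANKL and PRDX1 + no RANKL, were at 6.05 and 4.90 FPKM and did not pass the test (adjusted p = 0.1554). For Cxcl10 the groups without RANKL could not be separated, at 16.7 and 16.3 FPKM.

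Over the 8 libraries, Pearson's r of log2(FPKM + 1) was 0.94 between Cxcl1 and Cxcl3, 0.82 between Cxcl1 and Cxcl2 and 0.73 between Cxcl2 and Cxcl3. It was 0.94 between Cxcl3 and Cxcl16, 0.83 between Cxcl2 and Pf4 and −0.90 between Cxcl10 and Cxcl14. These points are 4 groups of 2 libraries and share the stimuli, so the values are descriptions. Among all tested genes the ones most alike were Ifi214 (0.98) and Cyp1b1 (0.98) for Cxcl1, Ly9 (0.99) and Serpinb9 (0.99) for Cxcl2, and Slc7a11 (0.996) and B2m (0.995) for Cxcl3. For Cxcl10 they were Rgs14 (0.99) and Cdk13 (0.99), for Cxcl14 Ehd4 (0.999) and Crim1 (0.996), for Cxcl16 Zmynd15 (0.99) and Klra2 (0.99), and for Pf4 Ftl1 (0.998) and Mafg (0.998). Slc7a11, the cystine transporter, had means of 0.854, 5.70, 1.53 and 7.49 FPKM in the order neither, PRDX1, RANKL, both, against 0.2165, 4.90, 0.793 and 6.05 for Cxcl3, so that the groups came in the same order but at other levels.

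Genes that lie side by side did not share one pattern. Cxcl5, the first gene of the chromosome 5 cluster and another neutrophil attractant, had 7 reads with neither stimulus, 46 with PRDX1, 3 with RANKL and 99 with both, summed over libraries. Its read ratio for PRDX1 was 7.04 (counting interval 3.16 to 18.5) without RANKL and 23.2 (7.70 to 114) with RANKL. The 2 libraries with PRDX1 alone differed, with 32 and 14 reads. In limma's fit with no filter on low values the PRDX1 value was 0.42 without RANKL (adjusted p = 0.06054), not called. With RANKL it was 0.70 (adjusted p = 0.006643), called. Ppbp, the platelet basic protein, lies 2.37 kb before Pf4 and had some of its calls. It was at 0.940 and 1.49 FPKM with neither, 0.272 and 0.457 with RANKL and 1.63 and 1.68 with both. RANKL alone lowered Ppbp (log2 fold change −0.69, adjusted p = 0.001646) and PRDX1 raised it under RANKL (0.96, adjusted p = 0.0003531). With PRDX1 present the RANKL value was −0.05 (adjusted p = 0.7957) with overlapping groups, where Pf4 fell. Cxcl3 follows Pf4 after 12.7 kb. Its means were 0.2165 FPKM with neither, 4.90 with PRDX1, 0.793 with RANKL and 6.05 with both, against 631.4, 786.2, 40.9 and 252 for Pf4.

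In the second cluster, Cxcl11, a further Cxcr3 ligand 10.7 kb from Cxcl10, had 0 reads with neither stimulus, 4 with PRDX1, 51 with RANKL and 198 with both. With RANKL alone it was at least 19.6-fold higher than with neither, taking 3 reads over the group as the limit that a count of 0 allows. Its read ratio for PRDX1 under RANKL was 2.73 (counting interval 1.99 to 3.78). Cxcl10 and Cxcl11 were thus higher, and Cxcl9 lower, in PRDX1 + RANKL than in no PRDX1 + RANKL. Cxcl11 passed the filter on low values only through PRDX1 + RANKL, where it was at 1.45 FPKM, so no test of it is given here.

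**Figure D4:**
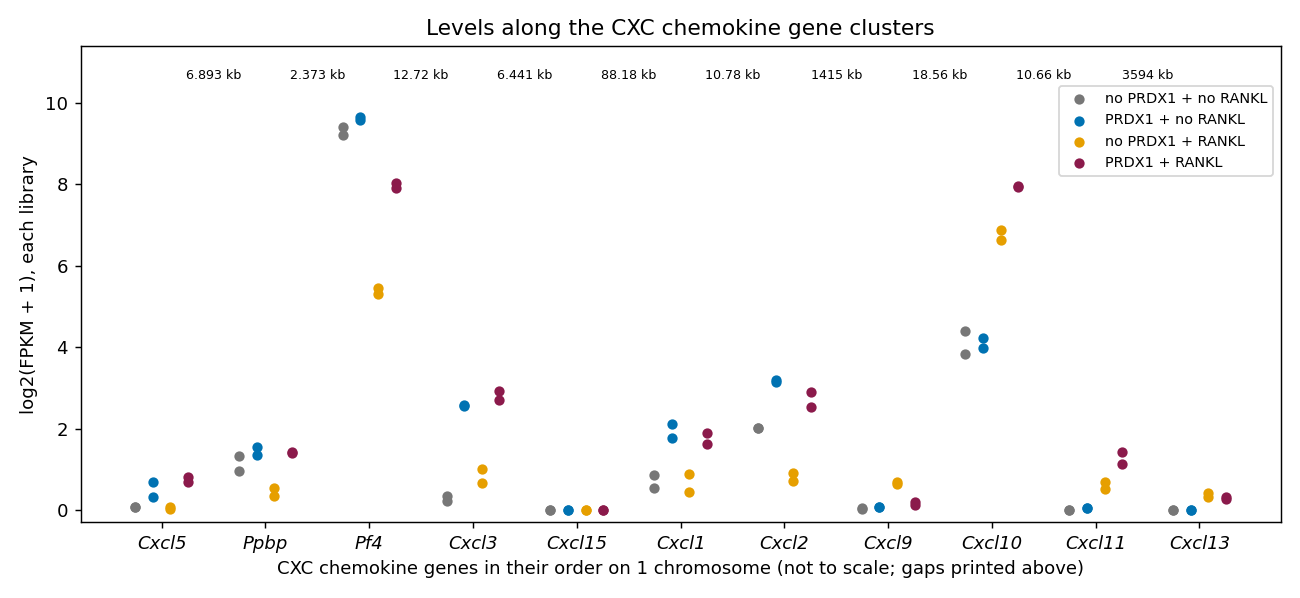
log2(FPKM + 1) in each library (points, coloured by group) for 11 CXC chemokine genes in the order in which they lie on their chromosome, not to scale, with the gap to the next gene in kb printed above. Pf4 stands far above its neighbours Ppbp and Cxcl3, and Cxcl9 peaks with RANKL alone while Cxcl10 and Cxcl11 peak with PRDX1 + RANKL.

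Of the 7 other CXC ligands listed, 3 passed the filter, namely Cxcl11, Ppbp and Cxcl12. PRDX1 alone raised 0 of them and lowered 0, and PRDX1 with RANKL raised Ppbp, where 3.8% and 6.03% of all genes were called higher. Cxcl11 entered the test only through the group in which it was high and is not counted here. Cxcl12, the ligand of Cxcr4, had means of 0.463 FPKM with neither, 0.956 with PRDX1, 0.422 with RANKL and 0.882 with both, with no overlap between groups with and without PRDX1. It too passed only through the PRDX1 groups, so no test of it is given. Cxcl13, a B cell attractant, had 0 reads without RANKL, 21 with RANKL and 23 with both. Cxcl15 and Cxcl17 had 0 reads in each of the 8 libraries, which allows up to 3 reads over each group.

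Of 10 receptors listed, 4 passed the filter. Cxcr2, the receptor of Cxcl1, Cxcl2 and Cxcl3 and abundant on neutrophils, was below the filter, with 19 reads with neither, 151 with PRDX1, 32 with RANKL and 173 with both. The 2 libraries with neither stimulus differed, with 5 and 14 reads. The read ratio of Cxcr2 for PRDX1 was 8.51 (counting interval 5.27 to 14.5) without RANKL and 3.80 (2.59 to 5.72) with RANKL. In the fit with no filter on low values it was called higher with PRDX1 alone (0.67, adjusted p = 0.01054), and the value with RANKL present was 0.50 (adjusted p = 0.01939), under the fold threshold. Cxcr6, the receptor of Cxcl16, had 2 to 7 reads per group. Ackr1 and Ackr3, which take up chemokines without signalling, had at most 4 reads in any group.

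Cxcr3, the receptor of Cxcl9, Cxcl10 and Cxcl11, had means of 2.75 FPKM with neither and 1.37 with RANKL. RANKL alone lowered it (log2 fold change −0.67, adjusted p = 0.00368), along with Cxcr4 (−0.76, adjusted p = 2.875e-05) and Gpr35 (−0.97, adjusted p = 1.56e-05). Cxcr4 was raised by PRDX1 under RANKL, from 11.0 to 24.1 FPKM (1.07, adjusted p = 5.859e-06). Ccr1, a CC chemokine receptor that was listed because Pf4 has been described as its ligand, was raised by PRDX1 alone from 27.0 to 64.5 FPKM (1.23, adjusted p = 9.948e-06) and by RANKL alone to 52.7 (0.94, adjusted p = 1.226e-05). With both it was at 37.0 FPKM. In the presence of PRDX1, RANKL lowered Ccr1 (−0.78, adjusted p = 0.0001287) and Gpr35 (−0.60, adjusted p = 0.001026) and raised 0 of the 4, where 3.98% of all genes were called lower.

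Proteins that cut or hold chemokines were listed next, and 11 of 12 passed the filter. PRDX1 alone raised 3 and lowered 0 (median −0.03, beside −0.04 over all genes, 3.8% of which were called higher), and with RANKL it raised 2 and lowered 4 (median 0.01, beside −0.06), where 6.03% of all genes were called higher and 4.17% lower. Mmp12, macrophage elastase, which can cleave CXC chemokines, was at 70.8 FPKM with neither, 292.6 with PRDX1, 37.1 with RANKL and 216.5 with both. PRDX1 raised it by 2.03 on the log2 scale alone (adjusted p = 9.401e-08) and 2.52 with RANKL (adjusted p = 1.22e-08). Mmp14, a membrane-bound metalloprotease, went from 0.894 to 13.7 FPKM with PRDX1 alone (2.96, adjusted p = 1.987e-08), and from 72.5 FPKM with RANKL to 33.6 with both (−1.09, adjusted p = 4.659e-06). Mmp9, gelatinase B and an osteoclast product, went from 0.4295 FPKM to 319.6 with RANKL (7.81, adjusted p = 1.376e-11) and stood at 28.75 with both.

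Sdc1, the heparan sulphate carrier syndecan-1, was raised by PRDX1 alone (0.85, adjusted p = 3.018e-06) and by RANKL (2.95, adjusted p = 8.178e-11). Ext1, which builds heparan sulphate chains, was lowered by PRDX1 under RANKL (−1.73, adjusted p = 4.117e-08). Adam10 and Adam17, the proteases that shed Cxcl16, had no call in any of the 4 comparisons, with log2 fold changes of −0.25 to 0.29.

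All 14 NF-κB, C/EBP and mRNA decay regulators passed the filter. PRDX1 alone raised 4 and lowered 0 of them, with a median of 0.29 beside −0.04 over all genes, of which 3.8% were called higher and 1.99% lower. They were led by Nfkbia (1.10, adjusted p = 8.557e-07), which encodes the inhibitor IκBα, Tnfaip3 (0.98, adjusted p = 1.616e-05), which encodes the deubiquitinase A20, and Zc3h12a (0.92, adjusted p = 4.738e-05), a nuclease that degrades chemokine mRNA. Each is itself an NF-κB target and restrains the pathway. With RANKL present PRDX1 raised 2, Nfkbiz (0.99, adjusted p = 3.002e-05) and Cebpb (0.63, adjusted p = 0.0003969), with a median of −0.04 beside −0.06 and 6.03% of all genes called higher.

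RANKL alone raised 5 of the 14 and lowered 1, with a median of 0.31 beside 0.10 over all genes, of which 11.8% were called higher and 9.96% lower. Among them were Nfkbia (2.74, adjusted p = 2.307e-10) and Nfkb2 (2.61, adjusted p = 9.908e-09), the precursor of p52, and Zfp36l1 (−1.70, adjusted p = 1.085e-08), an mRNA decay factor and the one that fell. With PRDX1 present RANKL raised Nfkb2 (2.19, adjusted p = 1.588e-07), Nfkbia (1.32, adjusted p = 1.579e-07) and Relb (1.16, adjusted p = 3.784e-06) and lowered Zfp36l1 (−0.88, adjusted p = 4.845e-06), where 4.52% of all genes were called higher and 3.98% lower. Nfkbia was higher with RANKL alone than with PRDX1 alone (1.64, adjusted p = 6.491e-09), the reverse of Cxcl1 (−1.27, adjusted p = 0.0001368), Cxcl2 (−2.35, adjusted p = 9.363e-08) and Cxcl3 (−1.73, adjusted p = 1.508e-06).

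All 17 interferon signalling genes passed the filter. PRDX1 alone raised 4 and lowered 0 (median 0.18, beside −0.04 over all genes, 3.8% of which were called higher), led by Irf7 (1.81, adjusted p = 2.626e-08), Usp18 (0.94, adjusted p = 1.254e-05) and Socs1 (0.64, adjusted p = 0.003434). With RANKL present it raised 5 and lowered 0 (median 0.24, beside −0.06, and 6.03% of all genes called higher), led by Irf7 (1.68, adjusted p = 1.663e-08), Irf8 (1.55, adjusted p = 2.72e-08) and Stat2 (1.42, adjusted p = 1.553e-06). Irf7, the master regulator of type I interferon genes, was at 163 FPKM with neither and 573 with PRDX1 alone, a group in which Cxcl10 was not called higher.

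Irf8, a macrophage transcription factor that restrains osteoclast formation, was at 49.0 FPKM with neither, 59.5 with PRDX1, 7.75 with RANKL and 24.7 with both. RANKL alone lowered Irf8 (−2.52, adjusted p = 2.66e-10) and Stat2 (−1.10, adjusted p = 3.454e-06) and raised Socs1 (0.98, adjusted p = 6.39e-05), an inhibitor of JAK signalling. It raised 2 and lowered 2 of the 17 in all, with a median of 0.18 beside 0.10 over all genes, of which 11.8% were called higher and 9.96% lower. Ifngr1, a chain of the interferon-γ receptor, was raised by RANKL alone (0.75, adjusted p = 2.03e-06) and with PRDX1 present (0.71, adjusted p = 9.956e-06). With PRDX1 present RANKL lowered Irf8 (−1.24, adjusted p = 1.588e-07), where 4.52% of all genes were called higher and 3.98% lower. Cxcl10 rose in both RANKL comparisons, while Irf8 fell in both.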

How the data were processed

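The authors aligned RNA-seq reads of 8 libraries with HISAT2, counted them on exons of mm10 RefSeq genes with HOMER without using the strand, keeping 1 transcript a gene, and deposited FPKM values. The submitters' processing notes also name DESeq2, and versions were not given in the sources used here. No per-sample column was left unused. Whole reads were recovered from FPKM and transcript length (100% of the values checked within 0.1 read), which gave 24542578 to 41712973 reads on genes per library. Replicates differed by more than sampling noise (chi-square per degree of freedom 4.706 to 9.58).

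log2(FPKM + 1), a scale that understates changes of low genes, was fitted with limma 3.58.1 in R 4.3.3 as 1 model of 4 groups with 4 residual degrees of freedom, for 11700 genes with a mean of at least 0.5 FPKM. Genes were called at a Benjamini-Hochberg adjusted p under 0.05 and a fold of at least 1.5. In simulated data with known answers for PRDX1 without RANKL the fit was checked first. Folds in the text are ratios of mean FPKM, and errors are SE unless named. Read ratios carry exact 95% binomial intervals of counting error only. The precision of other values is limited by 2 libraries a group.

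The members and gene lists were chosen with earlier results of these data known. Named genes were all 8 members, up to 3 called genes with the largest change per list and comparison, and the 2 genes most alike per member. Cxcl5, Cxcl12, Cxcl13, Cxcr2, Adam10, Adam17, Lyz2, Itga2b, Gp1ba, Gp1bb, Mmp8, Ndst1, Elane, Retnlg, Ly6g, Cd4 and genes listed as not or hardly detected were added after their values were seen. Alternatives were another pseudocount, other filters, quantile and upper quartile scaling, a replicate block, voom on recovered reads, a fit on 4 libraries and leaving out each library. The labels name C57BL/6 mice. The study's cell culture methods name ICR mice.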

Additional observations from a re-analysis of the deposited data

Results flagged for a closer look

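For 4 members the effect of PRDX1 differed between cultures with and without RANKL by limma's interaction term (log2 effect with minus without RANKL), past both thresholds, where 4.5% of all genes were called positive and 4.35% negative. It was positive for Pf4 (2.28, adjusted p = 6.103e-07), Cxcl10 (1.20, adjusted p = 0.003332), Cxcl2 (0.75, adjusted p = 0.01089) and Cxcl14 (0.60, adjusted p = 0.002771). For Cxcl16 it was −0.47 (adjusted p = 0.0004034), under the fold of 1.5. For Cxcl14 the PRDX1 value was −0.43 without and 0.17 with RANKL.

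Of the other genes listed, those with the largest called differences in each list, up to 3 a list, are given here. The difference was positive for Irf8 (1.28, adjusted p = 3.815e-06), Zfp36l1 (0.82, adjusted p = 0.0001661), Stat2 (0.80, adjusted p = 0.001737) and Ppbp (0.64, adjusted p = 0.04136). The value of Cxcl11 was 0.62, with no test read from it because it passed the filter on low values only through the PRDX1 + RANKL group. The difference was negative for Mmp14 (−4.05, adjusted p = 4.424e-08), Mmp9 (−3.94, adjusted p = 1.585e-07), Ccr1 (−1.73, adjusted p = 1.613e-05), Ext1 (−1.69, adjusted p = 1.952e-06), Nfkbia (−1.42, adjusted p = 2.809e-06) and Tnfaip3 (−1.06, adjusted p = 0.0001266). The list of proteins that cut or hold chemokines had further called differences, among them Mmp8 (1.43, adjusted p = 0.0002357), Sdc1 (−1.09, adjusted p = 9.006e-06) and Ndst1 (−1.08, adjusted p = 9.72e-05). With 2 libraries a group, single libraries were not tested as outliers.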

How the results depend on the processing

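The counts of members called stayed within 1.5 times under all alternatives run. Leaving out each library gave 4 to 4 members for PRDX1 without RANKL, 6 to 6 with RANKL, 5 to 6 for RANKL without PRDX1, 3 to 4 with PRDX1, and 3 to 4 for the interaction. Where this left 1 library in a group, it was assumed to vary like the other groups. Of 553 single-gene values under alternatives, 531 kept their direction and side of the thresholds, 7 passed newly, 6 no longer passed and 9 changed sign, the last all for values not called. Cxcl10 under PRDX1 without RANKL was 0.018 with quantile and 0.028 with upper quartile scaling, 0.273 without no PRDX1 + no RANKL replicate 2 and 0.112 without PRDX1 + no RANKL replicate 1 (range on leaving out a library −0.289 to 0.273). Cxcl1 under RANKL without PRDX1 was 0.129 and 0.187 without no PRDX1 + no RANKL replicate 1 and no PRDX1 + RANKL replicate 2 respectively (range −0.253 to 0.187). Its interaction was 0.010, 0.011 and 0.068 without no PRDX1 + no RANKL replicate 2, PRDX1 + no RANKL replicate 2 and no PRDX1 + RANKL replicate 1 (range −0.371 to 0.068). The cause was not tested. The same replicate numbers in different groups correlated at 0.008 to 0.096, which does not settle whether the libraries were paired. With the replicate block the counts of all genes called were 676, 1192, 2551, 994 and 1042, against 678, 1193, 2548, 995 and 1036. The members called numbered 4, 6, 5, 3 and 4 with it. For RANKL without PRDX1 the share of calls that were higher was 54.3%, and 45.2% with quantile and 47.0% with upper quartile scaling, and for RANKL with PRDX1 it was 53.2%, 44.8% and 46.2%. Low reads limit Cxcl1, Cxcl3 and Cxcl9.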
